A study of Mus musculus with 23 samples.

Results

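Il1b, the gene of the inflammatory cytokine interleukin-1 beta, and Il1r2, the gene of its decoy receptor, are described here in type 1 conventional dendritic cells (cDC1) isolated from mouse melanomas. They are 2 of the 13572 genes in the deposited count table. The pair was selected on its difference between the tumour groups of this study. Their levels and fold changes between the groups are therefore given as a description, without a test.

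Interleukin-1 beta is made as an inactive precursor that caspase-1 cuts inside inflammasomes before release. The mature cytokine binds the receptor IL1R1, which recruits the accessory chain IL1RAP and signals through MYD88 and IRAK kinases to NF-kB. The receptor encoded by Il1r2 binds the cytokine but lacks the intracellular domain needed to signal, so it acts as a sink. In myeloid cells, prostaglandin E2 (PGE2) signals through cyclic AMP, and Il1b is among the genes known to respond to it.

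The cells came from tumours of 2 kinds. PGE2-deficient tumours were grown from BRAFV600E melanoma cells with a knockout of Ptgs1 and Ptgs2, which encode the cyclooxygenases. Control tumours were grown from PGE2-producing BRAFV600E melanoma cells. Both lines were injected under the skin of wild-type C57BL/6 mice, whose own cells keep Ptgs1 and Ptgs2, so PGE2 from host cells was still possible in either group. Tumours were taken on day 6, and live leukocytes positive for CD45, CD11c, CD103 and MHC-II and negative for CD11b were sorted into pools of 10 cells, each of which became 1 Smart-seq3 library, a full-length method for small inputs. There were 4 mice per group, with 11 pools from PGE2-deficient tumours and 12 from control tumours. PGE2-deficient mouse 2 had pools 2 and 3. The labels call the pools of a mouse technical replicates, so counts were summed per mouse. Whether the knockout line was a single clone is not given in the sources used here.

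Pools held 25571 to 98554 counts with a median of 49506, and mice 101017 to 230478. The genes with enough counts to test numbered 2076. With PGE2-deficient tumours, 56 of them (2.7%) were higher and 47 (2.26%) were lower in edgeR's quasi-likelihood test at an adjusted p under 0.05, or 103 (4.96%) in either direction. The genotype of the cancer cells cannot be read from sorted immune cells. Melanoma markers had 1 count in all PGE2-deficient pools and 9 in all control pools. Ptgs2 in the sorted cells had 14 counts with PGE2-deficient tumours, all in mouse 4, and 4 counts in controls. Of 12 cDC1 markers, 11 were testable and 5 were higher with PGE2-deficient tumours. Their summed level per mouse was 4981 to 6716 CPM with PGE2-deficient tumours and 2259 to 4312 CPM in controls. CPM of marker sums, here and below, are counts scaled by the total over all genes, without TMM adjustment. CPM of single genes are counts scaled by TMM-adjusted library size over the tested genes, so these scales differ. Counts of the list were present in every pool, but the chemokine receptor gene Xcr1 had 0 counts in 5 of the 12 control pools. In pools of cells, fewer cells that express a gene and less RNA per cell cannot be told apart.

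In the GRCm38 assembly with GENCODE M21 genes, Il1b (ENSMUSG00000027398) is a protein-coding gene of chromosome 2 (129364570 to 129371139, minus strand), with 3 transcripts of up to 7 exons. Il1r2 (ENSMUSG00000026073) is a protein-coding gene of chromosome 1 (40074079 to 40125231, plus strand), with 4 transcripts of up to 9 exons. Il1bos runs antisense to Il1b and had 1 count in each group. Gm16894 runs antisense to Il1r2, with 1 count in PGE2-deficient pools and 7 in control pools, and Gm37347 overlaps Il1r2 on the same strand, with 1 count in each group. Whether counting used strand is not given in the sources used here, but these rows held few counts beside those of the 2 genes.

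The sequence before each start site is shown because both genes were lower in the same mice. Each window runs from 250 bases before to 50 bases after the RefSeq start in GRCm38.p6. That of Il1b is chr2:129371090-129371389 on the minus strand, and that of Il1r2 is chr1:40085843-40086142 on the plus strand, inside the longer gene that GENCODE annotates. Capitals mark TATAAA, the TATA box, in Il1b and CACGTG, the E-box of the USF and TFE factors, in Il1r2.
Il1b: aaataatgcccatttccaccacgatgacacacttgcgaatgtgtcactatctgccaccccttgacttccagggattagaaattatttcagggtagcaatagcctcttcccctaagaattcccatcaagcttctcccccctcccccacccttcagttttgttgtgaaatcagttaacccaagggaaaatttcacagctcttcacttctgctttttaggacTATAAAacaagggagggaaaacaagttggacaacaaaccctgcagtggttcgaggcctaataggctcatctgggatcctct
Il1r2: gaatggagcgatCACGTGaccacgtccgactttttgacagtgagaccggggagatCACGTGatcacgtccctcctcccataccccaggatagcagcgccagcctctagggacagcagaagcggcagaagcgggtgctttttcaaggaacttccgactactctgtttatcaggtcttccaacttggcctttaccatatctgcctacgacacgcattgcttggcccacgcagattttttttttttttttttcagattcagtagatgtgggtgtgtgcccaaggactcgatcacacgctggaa

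The motifs were chosen after the sequences were seen, and a match is a description of the letters only. TATAAA, searched on the strand of the gene, begins at −31 relative to the start of Il1b, is not in the Il1r2 window and is in 8.32% of 32851 RefSeq promoter windows of that length. CACGTG, which reads the same on both strands, begins at −238 and −195 relative to the start of Il1r2, is not in the Il1b window and is in 7.15% of windows. The 4 other motifs were searched on both strands and are in neither window. They are TGACG, the half-site for cyclic AMP response element binding factors (20.8% of windows), TGANTCA for AP-1 (7.81%), GAGGAA for PU.1 (28.3%) and TTGCNNAA for C/EBP factors (10.8%). The 2 windows thus shared none of these 6 strings of letters. Looser forms of the sites were not searched, so whether either window holds a site for these factors was not tested.

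Both genes were lower in cDC1 from PGE2-deficient tumours, and the decoy receptor by the larger factor. Il1b had 79, 69, 123 and 81 counts in PGE2-deficient mice 1 to 4, against 136, 210, 235 and 339 counts in control mice 1 to 4. Scaled to library size, these were 769.9, 819, 628 and 669 CPM with PGE2-deficient tumours and 1564, 1807, 2359 and 2658 CPM in controls. The groups did not overlap, and the 4 PGE2-deficient mice lay close together while the controls spread more widely. Il1b averaged 721 ± 88.2 CPM in PGE2-deficient mice and 2097 ± 500 CPM in control mice (SD, n = 4 each), a log2 fold change of −1.55 ± 0.18 (SE).

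Il1r2, which soaks up the cytokine, was close to the limit of detection in some PGE2-deficient mice. It had 3, 3, 22 and 21 counts in PGE2-deficient mice 1 to 4, against 50, 98, 53 and 112 counts in control mice 1 to 4. In CPM these were 29.2, 35.6, 112 and 173 with PGE2-deficient tumours and 575, 843, 532 and 878 in controls. The groups did not overlap here either, and within the PGE2-deficient group mice 3 and 4 stood above mice 1 and 2, whose values rest on 3 counts each. Il1r2 averaged 87.6 ± 68.5 CPM in PGE2-deficient mice and 707 ± 179 CPM in control mice (SD, n = 4 each), a log2 fold change of −2.91 ± 0.35 (SE). Both genes are among the 2.26% of tested genes called lower, and among the 119 (5.73%) with all 4 PGE2-deficient mice below all 4 control mice. Nothing is read from that, since this contrast chose them.

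**Figure D1:**
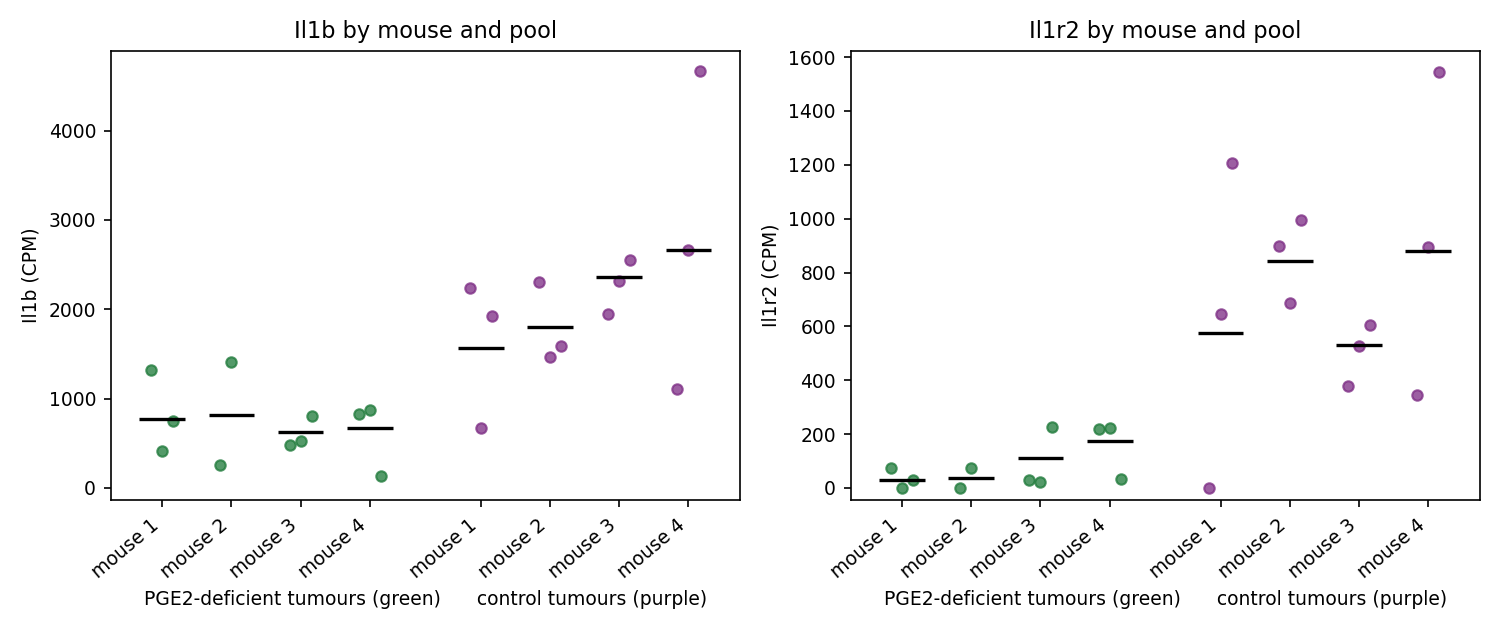
Level of Il1b (left) and Il1r2 (right) in CPM. Each point is a pool of 10 cells and each bar the level of the mouse from its summed counts, with PGE2-deficient mice in green and control mice in purple. The bars of PGE2-deficient mice lie at 628 to 819 CPM for Il1b and 29.2 to 173 CPM for Il1r2, below all control bars, and 1 control pool sits at 0 for Il1r2.

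The exons of the 2 genes have nearly the same summed length, 1907 bases for Il1b and 1908 for Il1r2, so their levels can be compared directly. Per kilobase of exon, Il1b averaged 378 ± 46.3 CPM in PGE2-deficient mice and 1099.6 ± 262 in control mice (SD, n = 4 each). That put it at rank 369 of 2076 tested genes with PGE2-deficient tumours and at rank 157 in controls, where rank 1 is the highest level. Il1r2 averaged 45.9 ± 35.9 CPM per kilobase in PGE2-deficient mice and 371 ± 93.7 in control mice, and its rank was 1198 with PGE2-deficient tumours and 385 in controls. The median tested gene stood at 62.5 CPM per kilobase with PGE2-deficient tumours and at 57.4 in controls. By these group means, in PGE2-deficient tumours the decoy receptor was below the median gene and in control tumours above it, while the cytokine was above the median in both. Single PGE2-deficient mice differed in this, with 15.3, 18.7, 58.8 and 90.9 CPM per kilobase of Il1r2 in mice 1 to 4, the last of which lay above the median gene.

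Because the decoy receptor differed more, the cytokine outweighed it further in PGE2-deficient tumours. Il1b had 26.3, 23.0, 5.59 and 3.86 counts per Il1r2 count in PGE2-deficient mice 1 to 4, against 2.72, 2.14, 4.43 and 3.03 in control mice 1 to 4. The exact 95% intervals, which cover counting error only, ran from 8.69 to 130.4 and from 7.55 to 114 in PGE2-deficient mice 1 and 2, where Il1r2 had 3 counts. In PGE2-deficient mice 3 and 4 they ran from 3.53 to 9.25 and from 2.36 to 6.56, and in control mice from 1.68 at the lowest to 6.09 at the highest. The groups overlapped in this ratio, since PGE2-deficient mouse 4 lay below control mouse 3. Over summed counts the ratio was 7.18 (5.32 to 9.90) with PGE2-deficient tumours and 2.94 (2.58 to 3.35) in controls.

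On the log2 scale the ratio averaged 3.42 ± 1.41 in PGE2-deficient mice and 1.57 ± 0.44 in control mice (SD, n = 4 each), a difference of 1.85. The fitted fold changes, which weight mice by depth, gave a difference of 1.35. The difference was 1.06 and 1.09 in fits without PGE2-deficient mouse 1 or 2, and 1.83 without mouse 4. Limma-trend on the means of log2 values with 50 CPM added, which shrink low levels, gave 0.93.

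**Figure D2:**
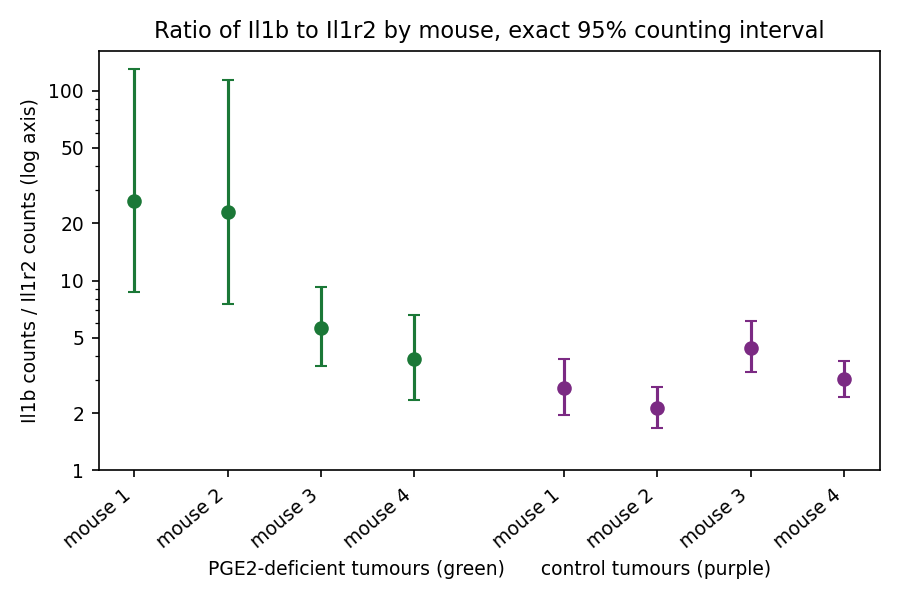
Counts of Il1b per count of Il1r2 in each mouse, on a log axis, with PGE2-deficient mice in green and control mice in purple. Points are ratios of summed counts and bars exact 95% counting intervals. PGE2-deficient mice 1 and 2 stand at 26.3 and 23.0 with wide intervals, and mouse 4 at 3.86 lies among the control mice, which run from 2.14 to 4.43.

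Il1b was present in every pool of 10 cells, while Il1r2 was near the limit of detection in most pools from PGE2-deficient tumours. The lowest, median and highest pool had 4, 31 and 68 counts of Il1b with PGE2-deficient tumours and 24, 65.5 and 166 counts in controls. In CPM these pools stood at 133, 755 and 1413 with PGE2-deficient tumours and at 675, 2092 and 4667 in controls. Single pools overlapped between the groups, as 6 of 11 PGE2-deficient pools lay above the lowest control pool, but none lay above the control median. Of the 12 control pools, 2 lay below the highest PGE2-deficient pool.

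For Il1r2 the lowest, median and highest pool had 0, 2 and 19 counts with PGE2-deficient tumours and 0, 25 and 55 counts in controls. These were 0, 33.2 and 226 CPM with PGE2-deficient tumours and 0, 667 and 1546 CPM in controls. It was detected in 9 of 11 PGE2-deficient pools and in 11 of 12 control pools. Pools with 3 counts or fewer numbered 8 of 11 with PGE2-deficient tumours and 1 of 12 in controls. A count of 0 allows up to 68.8 CPM in PGE2-deficient mouse 1 pool 2, 69.6 CPM in PGE2-deficient mouse 2 pool 2 and 97.2 CPM in control mouse 1 pool 1 (3 counts of the scaled total). These limits lie below every other control pool, the lowest of which had 347 CPM.

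The Il1r2 counts of PGE2-deficient tumours were concentrated in a few pools. The pool with the most, mouse 3 pool 3, held 19 of the 49 counts (38.8%), and the other large values were 11 and 9 counts in pools 2 and 1 of mouse 4. For comparison, the top pool held 17.6% of the 313 control counts of Il1r2, 19.3% of the 352 PGE2-deficient counts of Il1b and 18.0% of the 920 control counts of Il1b. In those 3 PGE2-deficient pools the ratio of Il1b to Il1r2 was 3.58, 3.78 and 3.91. The 11 control pools with more than 3 counts of both genes ran from 1.04 to 5.13 with a median of 2.98. These pools were picked by their Il1r2 counts, which favours low ratios, so nothing is read from them about the group. The other 8 PGE2-deficient pools had 4 to 58 counts of Il1b beside 0 to 3 of Il1r2, and the control pool left out had 69 beside 0.

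Single pools of a mouse spread more than the mouse means of a group. A mean of 2 or 3 pools varies less than a single pool even where mice do not differ, so nothing is read from that order. The SD of log2(CPM + 50) of Il1b between pools of a mouse was 1.04 with PGE2-deficient tumours and 0.71 in controls, while the SD between mouse means was 0.25 with PGE2-deficient tumours and 0.34 in controls. For Il1r2 the SD between pools was 0.92 with PGE2-deficient tumours and 1.35 in controls, and the SD between mouse means was 0.58 with PGE2-deficient tumours and 0.63 in controls. The median gene had an SD between mouse means of 0.32 with PGE2-deficient tumours and 0.31 in controls. Il1r2 lay above that in both groups, and Il1b below it with PGE2-deficient tumours and slightly above it in controls. Between pools the median gene had an SD of 0.53 with PGE2-deficient tumours and 0.58 in controls, so both members varied more than it between pools.

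Some of this is beyond counting error if each count is a separate molecule, which is not given in the sources used here. The chi-squared per degree of freedom of Il1b counts among the pools of a mouse, which is near 1 when counts follow library size, ran from 4.01 to 33.9 in PGE2-deficient mice and from 0.761 to 51.7 in control mice. For Il1r2 it ran from 1.63 to 8.55 in PGE2-deficient mice and from 0.525 to 17.7 in control mice. The most even mouse for both genes was control mouse 3, and the most uneven for both was control mouse 4.

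Whether the pools rich in the cytokine were also the pools rich in its decoy receptor was read from the pools of each mouse. In control mouse 4 the 3 pools had 1106, 2663 and 4667 CPM of Il1b and 347, 895 and 1546 CPM of Il1r2. In PGE2-deficient mouse 4 they had 824, 871 and 133 CPM of Il1b and 218, 223 and 33.2 CPM of Il1r2. In both mice the genes followed each other over the pools. Control mouse 1 went against this, with 2235, 675 and 1922 CPM of Il1b in pools 1 to 3 and 0, 647 and 1207 CPM of Il1r2. Its pool 1 had 69 counts of Il1b and none of Il1r2.

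Over all 22 pairs of pools from a same mouse, 18 had the genes in the same order, 9 of 10 pairs with PGE2-deficient tumours and 9 of 12 pairs in controls. The same pool was highest for both genes in 4 of 4 PGE2-deficient mice and in 2 of 4 control mice. With each mouse mean removed, log2(CPM + 50) of the genes correlated with Pearson's r of 0.88 and Spearman's rho of 0.84 over the 11 PGE2-deficient pools, and with r of 0.03 and rho of 0.24 over the 12 control pools. Both genes of a pool share its library depth, and pools share their mouse. Il1r2 in most PGE2-deficient pools rests on 3 counts or fewer, so these values are a description. Il1r2 ranked 4 among the 2076 tested genes by likeness to Il1b over PGE2-deficient pools and 887 over control pools, while the median gene had r of 0.00 with Il1b over PGE2-deficient pools and −0.03 over control pools.

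The low value in controls came from 1 pool. Without control mouse 1 pool 1, a removal chosen after its values were seen, r was 0.94 over the 11 remaining control pools. Over all 23 pools r was 0.40 and rho 0.61, and r was 0.90 without that pool. The pool held 36999 counts, with 4 counts of cDC2 markers, 23 of monocyte markers and 0 of macrophage, pDC and T cell markers. Ifitm1, an interferon-induced membrane protein gene, had its lowest level among control pools there, 1619 CPM, and so did Ctss, the gene of the protease cathepsin S, with 518 CPM. Ifitm1 and Ctss were named as genes most like Il1r2 over pools, this one included, so low values there are partly built in. The ferritin gene Fth1, also lower with PGE2-deficient tumours, had 3077 CPM in this pool, where control pools ran from 1497 to 3708 CPM. The Xcr1 level of the pool, 227 CPM, was the second highest of the control pools.

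**Figure D3:**
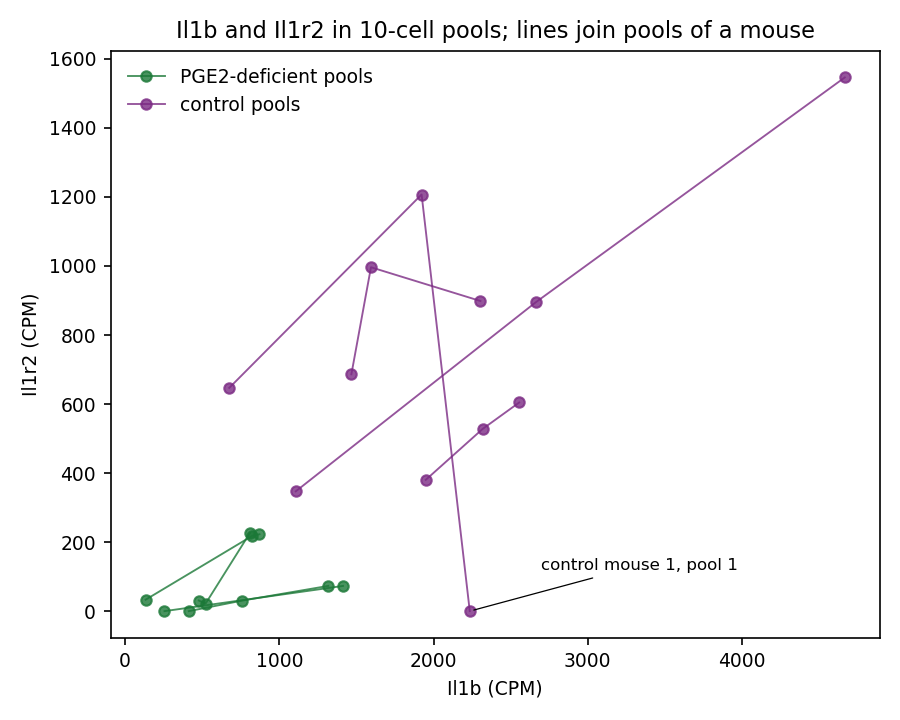
Il1r2 against Il1b in CPM for each pool of 10 cells, with PGE2-deficient pools in green and control pools in purple, and lines that join the pools of a mouse. Within most mice the lines rise, and control mouse 1 pool 1, with 2235 CPM of Il1b and 0 of Il1r2, lies apart.

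With 4 mice a group no correlation of the 2 members over the mice of a group was computed. The order of the mice is given instead. Among PGE2-deficient mice the order of Il1b, from high to low, was mouse 2, 1, 4 and 3, while that of Il1r2 was mouse 4, 3, 2 and 1. Mice 1 and 2 thus had more cytokine RNA and less of the decoy receptor than mice 3 and 4, although within each of these pairs the same mouse was higher for both genes. The Il1b values of the 4 mice differ by less than the spread between pools. Among control mice the order of Il1b was mouse 4, 3, 2 and 1 and that of Il1r2 mouse 4, 2, 1 and 3. Control mouse 4 was highest for both, and control mouse 3, second for Il1b, was lowest for Il1r2.

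The genes most like each member over the pools within mice differed between the 2 members. For Il1b they were H2afz, a histone variant gene, with r of 0.80 over 23 pools, the noncoding RNAs 1810058I24Rik (0.79) and Gm26623 (0.74), the processed pseudogene Gm13835 (0.77) and Zfand5 (0.71). For Il1r2 they were Polr2g, an RNA polymerase II subunit gene (0.73), Ivns1abp (0.72), Ifitm1 (0.70), Ctss (0.70) and Atpif1, the gene of an inhibitor of mitochondrial ATP synthase (0.68). By the same measure Il1r2 stood at rank 152 for Il1b and Il1b at rank 198 for Il1r2, so neither was among the 5 nearest genes of the other. These lists and ranks include control mouse 1 pool 1, without which r between the members was 0.90, and they were not computed without it. Over PGE2-deficient pools alone each member stood at rank 4 for the other. Of these 10 genes, Ifitm1 and Ctss were also lower with PGE2-deficient tumours in edgeR's test, and the other 8 were not called. Among all 2076 tested genes 47 (2.26%) were lower, and nothing is read from so few genes. Ctss changed by −0.73 ± 0.20 on the log2 scale (SE; edgeR adjusted p = 0.0448), and its call was lost when PGE2-deficient mouse 3 (−0.68), PGE2-deficient mouse 4 (−0.62), control mouse 2 (−0.65), control mouse 3 (−0.82) or control mouse 4 (−0.61) was left out.

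Over the 8 mice the levels follow the difference between the groups, and the values only list which genes share it. Nearest to Il1b were Cd53, a tetraspanin gene of leukocytes (r = 0.98), Tyrobp, the gene of the adaptor DAP12 (0.96), Gpr55 (0.96), the histone gene H3f3a (0.94) and Fth1, the ferritin heavy chain gene (0.94). Nearest to Il1r2 were the pseudogene Gm7676 (0.97), Fth1 (0.95), the pseudogene Gm12174 (0.93), Rps3a1 (0.93) and Ifitm1 (0.93). Fth1, which stores iron, averaged 1086 ± 79.5 CPM in PGE2-deficient mice and 2495 ± 42.6 CPM in control mice (SD, n = 4 each). Ifitm1 averaged 561 ± 432 CPM in PGE2-deficient mice and 7110.1 ± 731 CPM in control mice, a log2 fold change of −3.69 ± 0.34 (edgeR adjusted p = 1.61e-06). Gm7676 was listed at 0 in PGE2-deficient mice 1 to 3 and at 24.8 CPM in mouse 4, against 115, 129, 130.5 and 141 CPM in control mice.

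The rest of the interleukin-1 pathway was described over 6 lists of 80 genes without the pair itself. Of the 23 genes that could be tested, 1 was higher and 1 lower, or 8.70%, where 4.96% of all tested genes were called. Their median log2 fold change was −0.22, beside 0.01 for all tested genes. Most of the pathway was too low to test in pools of 10 cells. The pair therefore stands among few pathway genes with enough counts.

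Among the ligands and antagonists, Il1b was the one with enough counts to test. Il18, the gene of another cytokine released by caspase-1, had 9, 9, 15 and 13 counts in PGE2-deficient mice 1 to 4, against 7, 4, 4 and 4 counts in control mice. Il1rn, the gene of the receptor antagonist that competes with interleukin-1, had 10 counts in PGE2-deficient mice, 8 of them in mouse 4, and 1 count in control mice. Il1a and the 4 other listed ligands have no row in the table used here. Neither Il18 nor Il1rn passed the count filter, so their differences were not tested.

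Among the receptors, the decoy was the abundant one. Il1r1, the receptor that signals, had 0 counts in all PGE2-deficient pools, which allows up to 3 at this depth, and 3 counts in all control pools. Il1rap, its accessory chain, had 5 counts in each group. Sigirr, an inhibitory receptor of the family, had 7 counts with PGE2-deficient tumours and 10 in controls, and the other receptors with a row had 5 or fewer in each group. Against the 49 counts of Il1r2 with PGE2-deficient tumours and the 313 in controls, the signalling receptor was at or near 0 in both groups.

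Of 15 genes of the signalling path from the receptor, 5 were tested and none was called by edgeR, DESeq2 or limma-trend, with 0 at an unadjusted edgeR p under 0.05. The nearest to a call by edgeR's test were Ikbkb, an IkB kinase gene, with a log2 fold change of −0.52 ± 0.30 (SE; adjusted p = 0.379), and Peli1, an ubiquitin ligase gene, with 0.55 ± 0.34 (adjusted p = 0.423). Of 14 genes of the inflammasome and of release, 1 was tested, Casp8, at 0.68 ± 0.44 (adjusted p = 0.451). Casp1, which cuts the precursor, had 19 counts with PGE2-deficient tumours and 17 in controls, and the sensor gene Nlrp3 had 14 in each group. Pycard, the adaptor of the inflammasome, had 34 counts with PGE2-deficient tumours and 47 in controls. These genes did not pass the count filter, so their differences were not tested.

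Of 20 genes induced by interleukin-1 and NF-kB, 18 have a row, 6 were tested and none was called by edgeR, DESeq2 or limma-trend, while 1, Ccl3, had an unadjusted edgeR p under 0.05. Ccl3, a chemokine gene, had 3, 0, 13 and 12 counts in PGE2-deficient mice, against 0, 40, 20 and 25 counts in control mice, with a log2 fold change of −1.81 ± 0.65 (SE; adjusted p = 0.115). It was called lower without the count filter (adjusted p = 0.000732) and without control mouse 1, which had no count (log2 fold change −2.20, adjusted p = 0.00975). Relb, an NF-kB subunit gene below the count filter, had 80 counts with PGE2-deficient tumours and 28 in controls. Edger's test called it higher without the filter (log2 fold change 1.39, adjusted p = 0.0355) and without PGE2-deficient mouse 3. Rel, another NF-kB subunit gene, stood at −0.44 ± 0.28 (SE; adjusted p = 0.453). Of the 6 tested genes, 2 had a positive and 4 a negative fold change.

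The regulators of Il1b transcription and RNA decay held both called genes among 11 tested of 16. Irf8, a transcription factor gene that cDC1 depend on and also 1 of the cDC1 markers, was higher, with 1509.5 ± 205 CPM in PGE2-deficient mice and 837 ± 296 CPM in control mice (SD, n = 4 each; log2 fold change 0.85 ± 0.21, edgeR adjusted p = 0.0215). Crem, the gene of the cyclic AMP response element modulator, was lower, with 175, 214, 168 and 74.3 CPM in PGE2-deficient mice, against 345, 258, 291 and 423 CPM in control mice. Its groups did not overlap (log2 fold change −1.08 ± 0.30, edgeR adjusted p = 0.0448). Crem is itself a gene that cyclic AMP induces.

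Both calls depended on single mice. That of Irf8 was lost without PGE2-deficient mouse 1 (0.77, adjusted p = 0.0566) or 4 (0.85, adjusted p = 0.0531) and without control mouse 2 (0.68, adjusted p = 0.0816) or 4 (0.75, adjusted p = 0.0649). That of Crem was kept in fits without PGE2-deficient mouse 2 or control mouse 2 and lost without PGE2-deficient mouse 1 (−1.14), 3 (−1.14) or 4 (−0.86) and without control mouse 1 (−1.07), 3 (−1.14) or 4 (−0.93), with adjusted p from 0.0550 to 0.119. The nearest uncalled regulators by edgeR's test were Fos, an AP-1 gene, at 0.71 ± 0.21 (SE; adjusted p = 0.0568), and its partner Jun at −1.30 ± 0.43 (adjusted p = 0.0892). Fos was called higher without PGE2-deficient mouse 3 (0.86, adjusted p = 0.0175) and after every mouse was thinned to the lowest total (adjusted p = 0.0339), where Crem was not called (−0.97, adjusted p = 0.124).

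**Figure D4:**
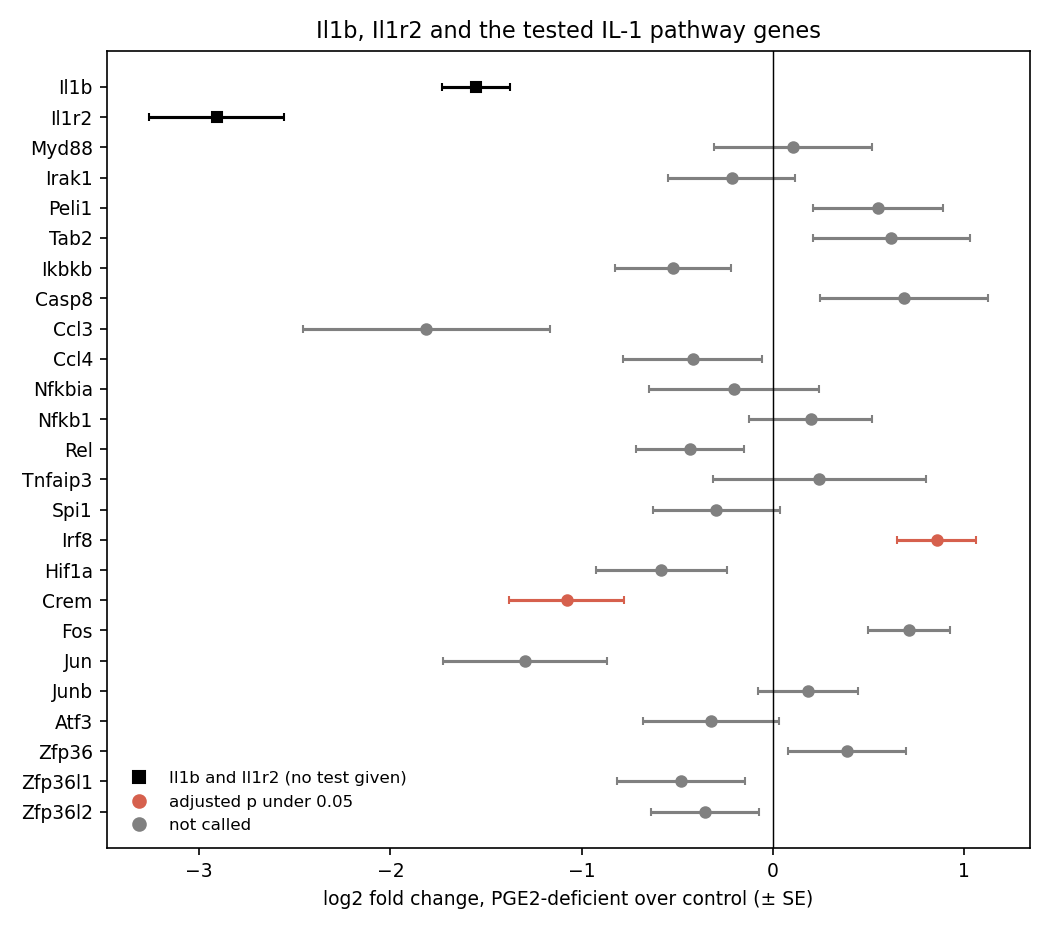
Log2 fold change, PGE2-deficient over control, of Il1b and Il1r2 (squares, no test given) and of the 23 tested pathway genes (circles), with SE bars. Irf8 at 0.85 and Crem at −1.08 passed an adjusted p under 0.05, and Il1r2 at −2.91 lies farthest from 0.

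Interleukin-1 beta and its decoy receptor are also made by neutrophils, monocytes, macrophages and other dendritic cells, so markers of these cells were read in the same pools. Of 15 neutrophil markers, 13 have no row, among them S100a8, S100a9 and Ly6g. The other 2, Hdc and Trem1, summed to 0 to 13.8 CPM per mouse with PGE2-deficient tumours and 0 to 66.3 CPM in controls. Marker sums are scaled to all counts of a mouse and are not on the scale of the Il1b and Il1r2 levels. Monocyte markers, of which 7 of 10 have a row, summed to 525 to 1011 CPM with PGE2-deficient tumours and 380 to 1625 CPM in controls and were present in every pool. Their most abundant members were Lyz2, with 149 counts in PGE2-deficient pools and 254 in control pools, and Ccr2, with 118 in PGE2-deficient pools and 50 in control pools. All 8 counts of Trem1 came from control mouse 2. A missing row is not a measured 0, so the part of neutrophils was not tested, and the summed monocyte genes overlapped between the groups.

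Markers of 3 other types were higher in some control mice. Macrophage markers (8 of 11 with a row, led by Apoe and C1qb) summed to 13.8 to 82.2 CPM per mouse with PGE2-deficient tumours and 8.09 to 825 CPM in controls. Markers of cDC2, the other conventional dendritic cells (8 of 8, led by Cd209a and Sirpa), summed to 22.4 to 376 CPM with PGE2-deficient tumours and 210 to 522 CPM in controls. Markers of plasmacytoid dendritic cells, pDC (8 of 8, with Smim5 at 0, led by Siglech and Ly6d), summed to 4.34 to 19.8 CPM with PGE2-deficient tumours and 8.83 to 542 CPM in controls. By group, these sums were higher in part of the control mice, as were Il1b and Il1r2. By pool they did not run one way. Control mouse 2 pool 2 (111 macrophage marker counts) and control mouse 4 pool 1 (118) had the lowest Il1b and Il1r2 of their mice. Control mouse 3 pool 3 (46 pDC marker counts) had the highest of its mouse. The part of these cells was not tested. T cell markers (8 of 9, led by Cd3d and Trbc2) went the other way between the groups. They summed to 0 to 228 CPM with PGE2-deficient tumours and 0 to 97.1 CPM in controls. NK cell markers (3 of 7, led by Gzmb and Klre1) had 26 counts with PGE2-deficient tumours and 10 in controls, and Ighm, the B cell marker with counts, had 38 with PGE2-deficient tumours and 20 in controls. No mast cell marker has a row. Markers of mature dendritic cells, 5 of 11 tested and 2 higher by edgeR's test (2.7% of all tested genes were higher), summed to 955 to 3485 CPM with PGE2-deficient tumours and 645 to 1316 CPM in controls.

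The difference was measured again without the pools rich in such markers. Without the pools with 10 or more cDC2 marker counts, 9 PGE2-deficient pools and 4 control pools from 3 mice were left. Those control pools still held 3 to 7 cDC2 marker counts each, and those PGE2-deficient pools 0 to 6. There Il1b had 273 counts with PGE2-deficient tumours and 261 in controls (log2 fold change −1.31), and Il1r2 had 30 with PGE2-deficient tumours and 80 in controls (−3.03). Without the pools with 10 or more counts of macrophage, neutrophil, pDC or T cell markers, which was added with the values in view, 7 PGE2-deficient and 5 control pools from 4 mice each were left. There Il1b had 205 counts with PGE2-deficient tumours and 427 in controls (−1.73), and Il1r2 had 18 with PGE2-deficient tumours and 135 in controls (−3.69). Beside −1.55 and −2.91 over all pools, the difference of Il1b was smaller in the first set and larger in the second, and that of Il1r2 was larger in both. The part of monocyte genes, which no pool lacks, and that of the remaining cDC2 marker counts were not tested.

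Control pools were also divided at 10 cDC2 marker counts, and the levels of each member overlapped between the 2 sets. The set under 10 still held cDC2 marker counts and includes control mouse 1 pool 1. Pools of a same mouse fall in both sets, so the part of cDC2 was not tested. In the 8 control pools with 10 or more cDC2 marker counts, Il1r2 ran from 347 to 1546 CPM with a median of 667, and in the 4 other control pools from 0 to 1207 CPM with a median of 762. Il1b ran from 675 to 4667 CPM with a median of 2127 in those 8 pools, and from 1594 to 2319 CPM with a median of 2079 in the 4 others. In PGE2-deficient tumours 2 pools passed that mark, with 255 and 808 CPM of Il1b and 0 and 226 CPM of Il1r2.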

How the data were processed

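RNA was measured by Smart-seq3 in pools of 10 sorted cells. The authors deposited counts, whole numbers per gene and pool without normalization. The submitters' processing notes name STAR 2.5.4b and the build GRCm38 (mm10). For the counting program, its annotation and the use of molecular identifiers, nothing is stated in those sources, so intervals and limits cover counting error only. Per the labels' protocols, tumours were digested with collagenase and DNase before sorting.

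Counts of the pools of a mouse were summed (4 mice against 4). The 16 gene symbols that a spreadsheet had turned into dates were replaced through their identifiers. No 2 pools agreed within sampling noise (chi-squared per degree of freedom of 2.17 or more). Genes passing filterByExpr (minimum count 10), 2076 genes with 80.6% of the counts, were fitted with edgeR 4.0.16 (TMM, quasi-likelihood F-test, two-sided, p-values adjusted by Benjamini-Hochberg over these genes, threshold 0.05). The biological coefficient of variation in common was 21.8%. Nothing states that the mice of a group had separate injections or litters, so p-values measure the spread between these mice. Exon lengths came from GENCODE M21 and promoter windows from RefSeq (GRCm38.p6). Both members matched. Ratio intervals are exact (Clopper-Pearson). Pool levels used log2(CPM + 50).

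The 2 members and all gene lists were chosen with earlier results of these data known. Named genes are the members, the called genes of the 6 interleukin-1 lists and up to 2 uncalled ones per list with the smallest p, Il1r1, Il1rap, Il1rn, Il1a, Casp1 and Nlrp3, the 5 genes most like each member over pools and over mice, and the 2 most abundant markers of each other cell type. Other genes named in passing were chosen after their values were seen. Alternatives were RLE and upper quartile scaling, no filter, DESeq2 1.42.0, limma-trend (limma 3.58.1), a mouse number block, each mouse left out, pools 2 and 3, pools without markers, and thinning. R 4.3.3 and Python 3.11.15 were used.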

Additional observations from a re-analysis of the deposited data

Results flagged for a closer look

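In PGE2-deficient mouse 4 the pseudogene Gm7676, the nearest gene to Il1r2 over the 8 mice, had 24.8 CPM, while PGE2-deficient mice 1 to 3 had 0. The gap to the other 3 mice is what set it apart. Since those 3 mice were at 0, any value above 0 in mouse 4 would have been flagged, so nothing is read from it. It was the one such value in 38 groups of 4 mice that were checked. The rate of about 1 in 20 by chance does not apply to a group with 3 values at 0.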

How the results depend on the processing

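Over 18 alternatives the log2 fold change ran from −1.73 to −1.31 for Il1b and from −3.69 to −2.53 for Il1r2, and the difference in log2 ratio from 0.93 to 1.96, each in 1 direction and within 1 SD of the main value. The 103 called genes became 194 without the count filter, 51 with pools 2 and 3, 9 without cDC2 marker pools, 13 without macrophage, neutrophil, pDC or T cell marker pools, 62 after thinning, and 56 to 111 without 1 mouse (56 without control mouse 2 and 63 without control mouse 3). The 2 called pathway genes became 4 without the filter (Ccl3 and Crem lower, Irf8 and Relb higher), 0 with pools 2 and 3 and 0 in both sets without marker pools, and 0 to 3 without 1 mouse. Leaving out PGE2-deficient mouse 1, PGE2-deficient mouse 4 or control mouse 4 gave 0. Pool filters leave fewer genes and samples to test, and otherwise the cause was not tested. The within-mouse correlation of 0.40 ran from 0.29 to 0.89 without 1 mouse, the highest without control mouse 1, and was 0.90 without pool 1 of that mouse.

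Mouse numbers recur in both groups, but same-numbered mice deviated together with correlations of −0.09 to 0.11, the own number being the closest for 1 of 4, so they were not treated as pairs. With the mouse number as a replicate block, 1 pathway gene (Irf8) and 73 genes in all were called, with log2 fold changes of −1.53 for Il1b and −2.95 for Il1r2. Removing pools with monocyte markers as well left no pool and was not run. Depth limits Il1r2 in PGE2-deficient pools, most of which hold 3 counts or fewer.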
